A study of Homo sapiens with 6 samples.

Results

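SNX5 and SNORD17, the small nucleolar RNA (snoRNA) gene inside its first intron, were followed through Nm-mut-seq libraries of chromatin-associated RNA (caRNA) from HepG2, a human hepatocellular carcinoma cell line. The members were all listed positions on the minus strand of chr20:17941597-17968980 (hg38), the span of SNX5. They came to 1657 of 176343 positions under imbalanced dNTP and 1079 of 246881 under balanced dNTP. GENCODE places SNORD17 at chr20:17962710-17962946, minus strand. Inside it lay 170 of the imbalanced and 156 of the balanced positions, and 155 of these were listed in both tables; 1487, 923 and 136 positions lay in the rest of SNX5.

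The series held 6 libraries. In 3 of them reverse transcription ran on imbalanced dNTP, with dATP at 1 mM and dGTP, dCTP and dTTP at 2 µM, and in the other 3 on balanced dNTP, all at 1 mM. Each balanced library was the input of the imbalanced library with the same replicate number, since both reactions used the same ligated RNA. All 6 libraries came from unperturbed HepG2 caRNA, so no cell state or genotype was compared. RNA under 200 nt was to be removed before library construction, and SNORD17, at 237 nt, lies just above that size. Shorter snoRNAs were nevertheless listed, and by depth SNORD17 ranked 21st of 40 snoRNA genes compared. In imbalanced replicate 1 the median depth was 4236 reads in SNORD26 (75 nt) and 3470 in SNORD118 (134 nt), beside 793.5 in SNORD17. Depth summed over listed positions was 17063930 to 22485865 reads under imbalanced and 22974020 to 34367262 under balanced dNTP. Of 7 liver genes in a marker list, 6 had listed positions (ALB, AFP, APOA1, APOB, SERPINA1 and TF) and FGB had none. No position was listed in PTPRC, PECAM1, COL1A1 or EPCAM, a second list of genes. As FGB also had none, a lack of listed positions was not read as a lack of expression.

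SNX5 is a sorting nexin whose BAR domain senses curved membrane, and with SNX1 or SNX2 it forms the endosomal complex that returns receptors to the trans-Golgi network and the plasma membrane. SNORD17 is a box C/D snoRNA. RNAs of this class hold a C box near the 5′ end and a D box near the 3′ end, bind FBL, NOP56, NOP58 and SNU13, and guide FBL to the nucleotide of rRNA that receives a ribose methyl group (2′-O-methylation, Nm). Most human box C/D snoRNAs are cut out of the introns of a host gene after splicing and trimmed back to the particle. In Nm-mut-seq, reverse transcriptase short of dGTP, dCTP and dTTP reads through a methylated G, A or C with a misincorporated base that is sequenced as T. The mutation ratio of a position is its reads with T divided by its depth.

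The sequence of SNORD17 is shown whole, as read from hg38 on the minus strand, because its calls ran over the length of the RNA. Capitals mark the 31 called sites, defined below, whose mean mutation ratio was at least 5%.
SNORD17: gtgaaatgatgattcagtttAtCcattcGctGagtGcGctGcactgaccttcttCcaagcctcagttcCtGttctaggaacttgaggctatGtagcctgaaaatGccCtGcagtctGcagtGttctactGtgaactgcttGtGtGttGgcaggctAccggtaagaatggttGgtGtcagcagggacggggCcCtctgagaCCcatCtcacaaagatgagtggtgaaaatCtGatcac

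Its ends are shown again for the boxes, in capitals. Positions are counted from 1 at the 5′ end.
First 20 nt: gtgaaaTGATGAttcagttt
Last 20 nt: agtggtgaaaatCTGAtcac
The C box letters TGATGA occurred once on the sense strand, at nt 7 to 12, and the D box letters CTGA nearest to the 3′ end stood at nt 230 to 233. CTGA was also found on the sense strand at nt 30, 44, 97 and 195. Of 113 windows of 237 nt tiled over the rest of SNX5, 5.31% held TGATGA and 77.0% held CTGA on the sense strand. With TGATGA in only 6 windows, it carries little weight that 0 held it in the first 20 nt together with CTGA in the last 20 nt.

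SNORD17 lay 5429 nt after canonical exon 1 and 5673 nt before canonical exon 2 of SNX5, in an intron of 11337 nt, and 0 exons of SNX5 or OVOL2 overlapped it. OVOL2, a zinc finger gene, has 1 long transcript on the same strand that spans SNORD17 and 796 of the 1487 other listed positions, so reads there cannot be told apart between the hosts. On the opposite strand of SNX5, 0 positions were listed. A search of hg38 with the whole of SNORD17 gave 0 alignments elsewhere at an E value of 1e-05 or less.

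Depth separated the snoRNA from its host. Under imbalanced dNTP, the median depth of the listed positions was 793.5, 650 and 573 reads in SNORD17 (replicates 1, 2 and 3) and 19, 17 and 26 in the rest of SNX5. Under balanced dNTP it was 1732, 1052.5 and 871.5 reads in SNORD17 and 33, 21 and 32 in the rest. No library overlapped between the classes. The log2 ratio of the medians was 5.03 ± 0.50 in the imbalanced and 5.38 ± 0.53 in the balanced libraries (SD, n = 3 each). For each, an exact paired permutation test over the libraries gave a two-sided p of 0.25, the lowest that 3 pairs allow. Replicate 3 had the lowest ratio in both reactions, 22.0 and 27.2 against 38.2 to 52.5 in replicates 1 and 2. These ratios compare listed positions alone, and listing itself asked for reads.

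**Figure D1:**
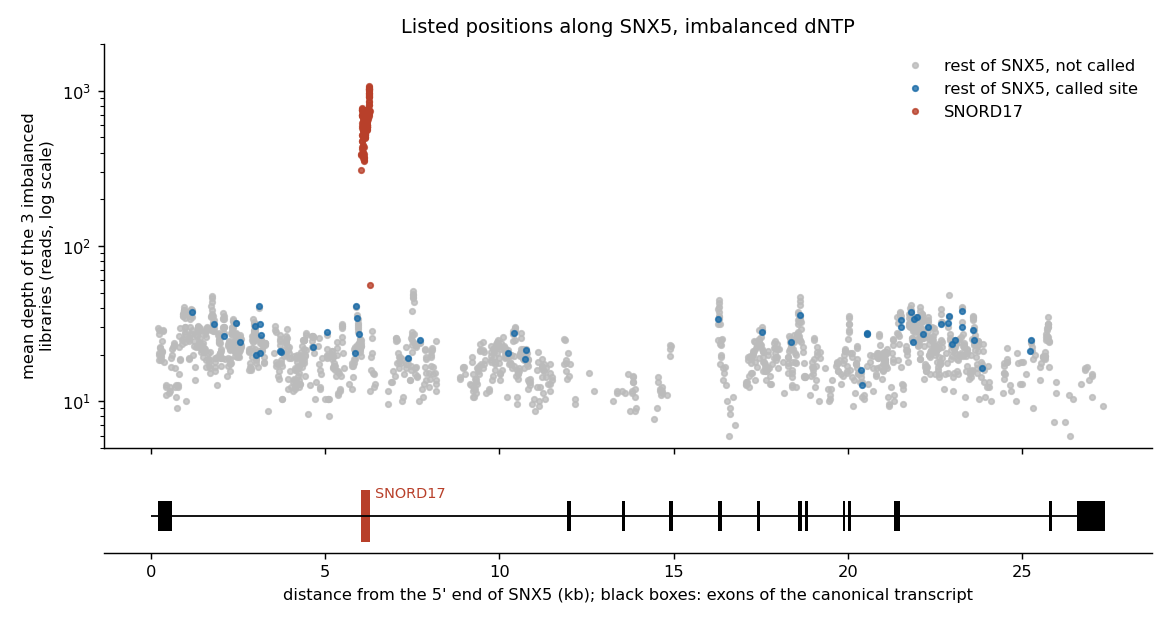
Mean depth of the 3 imbalanced libraries (reads, log scale) at each listed position of SNX5, by distance from its 5′ end in kb, above the canonical exons. SNORD17 stands apart from the host, whose listed positions did not exceed 66 reads in any imbalanced library.

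The step in depth fell at the annotated ends of SNORD17. In the 100 nt before its first base, 19 positions were listed under imbalanced dNTP with median depths of 28, 19 and 25 reads. Over nt 1 to 40 the medians were 838.5, 678 and 541.5 reads. Depth dipped over nt 41 to 80, to 638.5, 477 and 391.5 reads, and was highest over nt 201 to 235, at 1078, 937 and 732 reads. Under balanced dNTP the highest stretch was instead nt 121 to 160, at 2176, 1324.5 and 1078.5 reads, and nt 201 to 235 had 1488, 946 and 793. The next listed base, the A at nt 236, had 64, 56 and 49 reads, and the 6 listed positions of the 100 nt after SNORD17 had medians of 23.5, 15.5 and 20.5. The fall thus lay within the last bases of the annotation, just past the D box. Mature snoRNA and unspliced SNX5 both cover these positions, and the libraries do not tell their molecules apart within SNORD17.

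**Figure D2:**
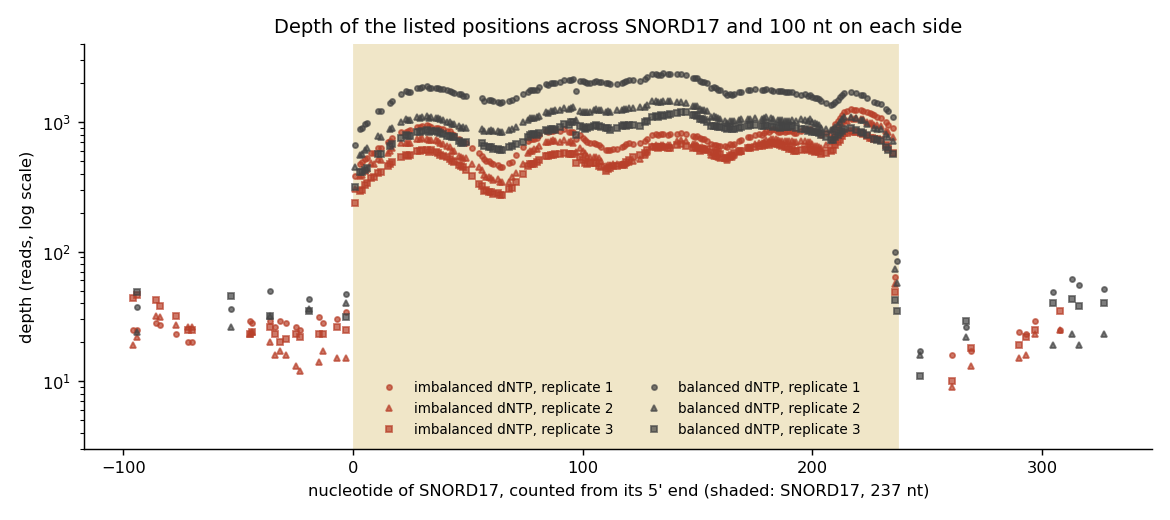
Depth (reads, log scale) of every listed position from 100 nt before to 100 nt after SNORD17 in the 6 libraries. All 6 rise at nt 1 and fall after nt 235; the median before SNORD17 was 28, 19 and 25 reads in the imbalanced libraries.

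Nearly every G, A and C of SNORD17 gave T reads in both reactions, 170 of 171 listed under imbalanced and 156 under balanced dNTP, but the T share was far higher under imbalanced dNTP. Over the 155 positions listed in both tables, T made up 3.29%, 3.48% and 3.15% of the imbalanced reads and 0.0888%, 0.0980% and 0.0842% of the balanced reads. The paired difference was 3.22 ± 0.16 percentage points (SD, n = 3), with the imbalanced library higher in 3 of 3 pairs (two-sided p = 0.25 by the same exact permutation test). Reads with neither T nor the reference base made up 0.258% ± 0.009 (SD, n = 3) and 0.237% ± 0.015 (SD, n = 3) in the 2 reactions, so the rise was in T.

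Called sites follow criteria of the study's methods: depth of 10 or more, 3 or more T reads, and a mutation ratio over 3-fold its input, each in all 3 replicates. A further criterion, background from spike-in oligos, was not applied here, and a call does not by itself mark a methylated base. In SNORD17, 149 of 170 listed positions were called (87.6%), beside 26.7% of all positions of the series with a depth of at least 10. SNORD17 was far deeper than that limit, so these shares are not of equal depth. Of the 21 others, 17 had under 3 T reads in some library and 4 missed the fold over input alone. The median mean ratio of the called sites was 2.84%, from 0.671% to 19.6%, and the median of the lowest depth behind each was 564 reads. By edgeR's quasi-likelihood test on T and other reads, 152 of the 155 tested positions rose at an adjusted p under 0.05 and 0 fell (153 had an unadjusted p under 0.05). Among all tested positions 74.3% were higher and 0.0589% lower. Of all positions with 50 or more reads in every library 91.5% were higher, beside 153 of 154 in SNORD17. The median log2 difference was 4.77, beside 3.94 over all 32284 positions tested.

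**Figure D3:**
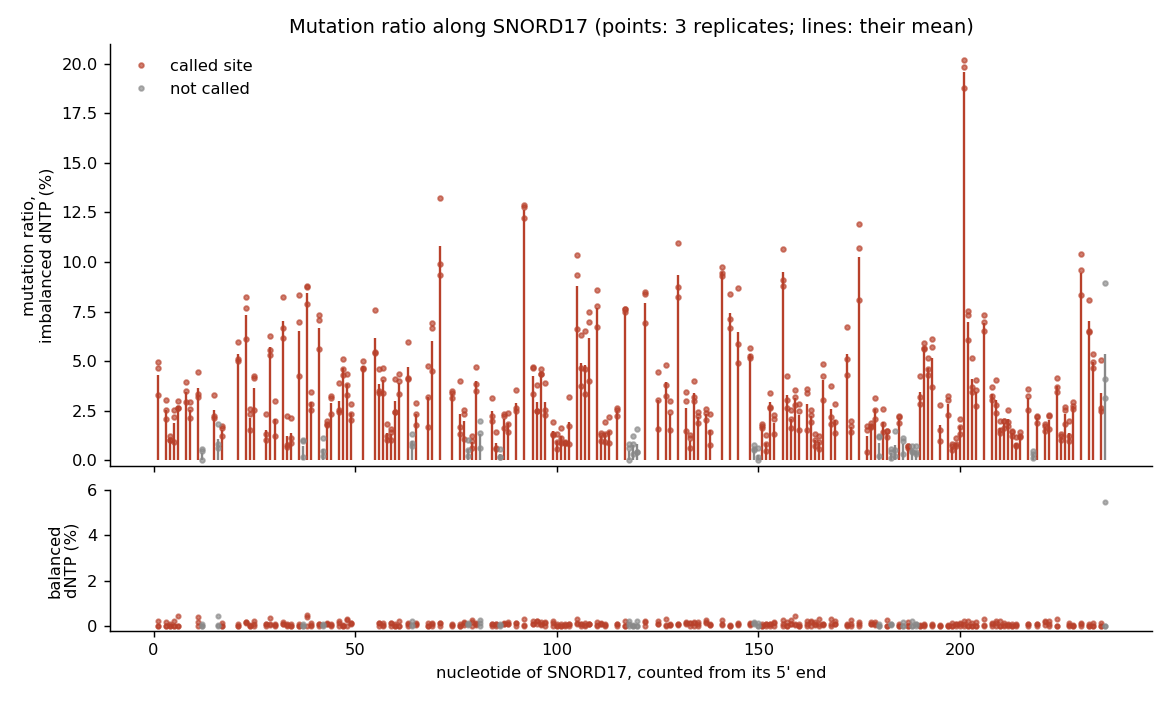
Mutation ratio (%) at each listed nucleotide of SNORD17, counted from its 5′ end, under imbalanced (top) and balanced dNTP (bottom). Points are the 3 replicates and lines their mean; the C at nt 201 stands highest, at 19.6%, and 31 called sites reached 5%.

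The highest site by far was a C. At nt 201 (chr20:17962746) T was read in 168 of 847, 131 of 648 and 111 of 591 imbalanced reads, or 19.8%, 20.2% and 18.8%, with exact 95% intervals from 15.7% to 23.5% over the 3 libraries (counting error only). The balanced libraries gave 0 of 1544, 1 of 985 and 2 of 832 T reads there. For the 0 in 1544 the exact 95% upper limit was 0.239%, and a limit of 3 counts is 0.194%. No interval of this site reached the ratio of the site next in order. The edgeR log2 difference was 7.89 ± 0.37 (SE), with an adjusted p of 2.10e-100, and nt 201 ranked first in each of the 3 libraries. It follows shortly after the CTGA at nt 195 to 198.

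The next 3 sites were G flanked by U on both sides. The G at nt 92 had ratios of 12.2%, 12.9% and 12.8%, with 1 of 2118, 4 of 1283 and 0 of 964 T reads under balanced dNTP. The G at nt 71 had 9.91%, 13.2% and 9.36%, and the G at nt 175 had 10.7%, 11.9% and 8.10%. The ranges of these latter sites overlapped each other, so their order is not fixed by 3 libraries. The A at nt 156, at 9.08%, 8.81% and 10.7%, was the highest A. At the other end of the called sites, the G at nt 187 had 0.703%, 0.697% and 0.612% (mean 0.671%), on 6, 5 and 4 T reads.
Windows of 10 nt on each side of the 5 highest sites, with the site in capitals, are given to show what the leading sites share in sequence.
SNORD17 nt 201: ccctctgagaCccatctcaca
SNORD17 nt 92: ttgaggctatGtagcctgaaa
SNORD17 nt 71: ctcagttcctGttctaggaac
SNORD17 nt 175: aatggttggtGtcagcaggga
SNORD17 nt 156: ttggcaggctAccggtaagaa
A T stands on both sides of the G at nt 92, 71 and 175, and before the A at nt 156, whereas the C at nt 201 has A before it and C after it.

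Calls included positions of the boxes. In the C box, the G at nt 8 and nt 11 had mean ratios of 3.46% and 3.66% and the A at nt 9 had 2.55%, while the A at nt 12 had 0.358% and was not called. In the D box, the C at nt 230 had 8.35%, 9.61% and 10.4%, the G at nt 232 had a mean of 7.02% and the A at nt 233 had 4.98%. All 3 D box positions were called.

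Within SNORD17, G, A and C were called in like shares, and levels differed by the neighbouring bases. Called were 56 of 64 listed G, 47 of 53 A and 46 of 53 C. G made up 37.4% of its G, A and C, 37.6% of its listed positions and 37.6% of its called sites. The T share under imbalanced dNTP was 3.63% ± 0.20 at G, 3.60% ± 0.19 at C and 2.27% ± 0.04 at A (SD, n = 3). The 9 G positions in the context UGU averaged 9.03%, 9.22% and 7.95% in the 3 imbalanced libraries, and the other 55 averaged 2.76%, 3.09% and 2.83%. That difference of 5.84 ± 0.63 percentage points (SD, n = 3) was seen in 3 of 3 libraries (two-sided p = 0.25, exact permutation test). Under balanced dNTP the same contexts averaged 0.0944% ± 0.0382 and 0.102% ± 0.021 (SD, n = 3), which overlapped. Grouped by neighbours, G with U before it but not after averaged 4.44% ± 0.31, and G with U after it but not before averaged 1.77% ± 0.14 (SD, n = 3). G with no U beside it averaged 1.91% ± 0.09 over 23 positions. U before the site went with a higher ratio at A too, at 4.44% ± 0.24 over 7 positions against 2.03% ± 0.11 over 46. At C the gap was smaller, 4.08% ± 0.28 over 16 positions with U before and 3.39% ± 0.20 over 37 without.

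The profile over SNORD17 was shared by the libraries. Across its 170 listed positions the ratios of any replicate pair correlated with Pearson's r from 0.923 to 0.931, as a description over positions of the same RNA, and the median gap between replicates was 0.542 to 0.586 percentage points. No position had the same counts in any pair of replicates. Each of 6 stretches of 40 nt (the last 35 nt long, nt 201 to 235) held 4 to 7 called sites of at least 5%, with mean ratios from 2.36% over nt 161 to 200 to 3.78% over nt 201 to 235, so no such stretch lacked them.

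The rest of SNX5 was a shallow region with scattered calls. Of 1487 listed positions, 298 lay in SNX5 exons and 1189 in introns, and the listed share of G, A and C was 8.35% in exons and 7.95% in introns, against 170 of 171 in SNORD17. By the criteria above, 53 positions were called, 4.24% of the 1250 with a depth of at least 10, beside 26.7% over the series. These shares are not of equal depth, since the rest held 0 listed positions with 50 or more reads in every imbalanced library. The calls lay in 4 introns and 2 exons of the canonical transcript: 25 in intron 1, which also holds SNORD17, 20 in intron 11, 4 in intron 10, 2 in intron 6, and 1 each in exons 5 and 7. Of the intronic calls, 6 fell in exons of other SNX5 transcripts. The call closest to a canonical splice site was 13 nt from it and 5 of 53 lay within 200 nt, with a median distance of 1505 nt.

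Among the called sites of the rest, G preceded by U made up most. G was 32.5% of the reference G, A and C, 47.7% of the listed positions and 47 of the 53 calls (88.7%); the others were 4 C and 2 A. Of the G positions, 36.1% have U before them in the reference, 80.0% among those listed and 97.9% (46 of 47) among those called. UGU made up 10.3% of reference G, 35.7% of listed G and 61.7% of called G. The lowest mean ratio of a called site was 8.58% here and 0.671% in SNORD17. With a minimum ratio of 0.05, SNORD17 kept 24 called sites, of which 16 were G. Base shares of the called sites of SNORD17 and the rest are thus not at equal ratios. In the balanced table the listed bases of the rest were even, 33.7% G, 33.9% A and 32.4% C. Positions there were listed for 1 or more T reads, and under imbalanced dNTP for at least 3. The base shares of the listings are therefore not at the same threshold.

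The highest called site of the rest was the G at chr20:17948427 in intron 10, 463 nt from the nearest splice site. T was read there in 9 of 25, 9 of 23 and 14 of 34 imbalanced reads, or 36.0%, 39.1% and 41.2%. The exact 95% intervals ran from 18.0% to 61.5% over the 3 libraries. The next 4 were the G at chr20:17948564 in the same intron (mean 28.5%), at chr20:17945122 in intron 11 (28.1%), and at chr20:17965853 (27.9%) and chr20:17963123 (26.3%) in intron 1. Their replicates ranged widely, from 16.7% to 46.2% at chr20:17965853, and none of the 5 was listed under balanced dNTP, where the input was taken as 0.
SNX5 chr20:17948417-17948437: aggattgtatGccctctaagg
SNX5 chr20:17948554-17948574: agcgttatatGtatatgtgga
SNX5 chr20:17945112-17945132: tatgaaatttGtgacttttta
SNX5 chr20:17965843-17965863: tgctacccttGcaactatttt
SNX5 chr20:17963113-17963133: ggatttatctGccaggagatc
These minus-strand windows, with the site in capitals, show T just before the G in all 5 and T just after it in 2.

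Counts behind these host sites were small. No called site of the rest had more than 14 T reads in a library, and 52 of 53 had at most 10. The lowest depth behind a call ran from 11 to 34 reads, with a median of 21. The 5 deepest listed positions of the rest, at 35 to 64 reads, were not called; the deepest, the G at chr20:17961468 in an exon of a transcript other than the canonical one, had 6 of 50, 3 of 40 and 1 of 64 T reads. Without replicate 1, 2 or 3, the calls of the rest came to 128, 152 and 82, so the count rested on the demand that all 3 replicates pass. By edgeR, 11 of 111 tested positions rose (9.91%) and 0 fell, against 74.3% higher over the series. That 0 fell carries no weight, because these shallow positions were listed for 3 or more T reads under imbalanced dNTP. The shares are not of equal depth either: of all positions with 50 or more reads in every library 91.5% were higher, and the rest of SNX5 had no such position. Without the replicate block 48 rose, beside 83.5% over the series, and DESeq2 called 22, beside 76.1%. Without replicate 1, 2 or 3 the count was 1, 0 and 1, beside 54.3%, 56.7% and 55.9% over the series; 1, 2 and 2 positions had an unadjusted p under 0.05. The strongest was the G at chr20:17967190, with 5 of 28, 9 of 24 and 5 of 42 T reads against 1 of 53, 0 of 34 and 0 of 65 (log2 4.79 ± 1.37 SE, adjusted p = 0.000900 by edgeR).

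The T share of listed positions was higher in the host than in the snoRNA. Under imbalanced dNTP it was 3.18%, 3.35% and 3.07% in SNORD17 and 8.87%, 8.75% and 9.46% in the rest of SNX5. The rest stood at 8.31%, 7.71% and 8.23% in exons and 9.04%, 9.06% and 9.83% in introns. No library overlapped between SNORD17 and the rest, and the difference was -5.83 ± 0.51 percentage points (SD, n = 3; two-sided p = 0.25, exact permutation test). The rest was higher for each base: SNORD17 minus the rest gave -6.56 points for G, -5.48 for A and -4.58 for C. Positions of the rest were listed for at least 3 T reads at low depth. The direction of this contrast, for all bases together and for each base, is thus no result. Over the 136 positions of the rest listed in both tables, T made up 9.48% ± 0.50 of the imbalanced and 2.44% ± 0.16 of the balanced reads (SD, n = 3). The direction of that difference is no result, since these positions were listed for at least 3 T reads in an imbalanced library but 1 or more in the balanced libraries. Of the rest, 4 positions had mean ratios from 36.9% to 52.6% under balanced dNTP and from 33.4% to 49.1% under imbalanced dNTP, and edgeR called 0 of them. Over all positions of the rest listed in each reaction, the T share was 9.03% ± 0.38 under imbalanced and 1.45% ± 0.07 under balanced dNTP (SD, n = 3). Without these 4, it was 8.95% ± 0.38 and 1.21% ± 0.08 (SD, n = 3).

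Listing bears directly on this difference. Every listed position of the rest had at least 3 T reads in some imbalanced library, and 1219 of 1487 (82.0%) had them in exactly 1. At the median depth of the rest, 3 T reads are 15.8%, 17.6% and 11.5% of the reads of replicates 1, 2 and 3. At the median depth of SNORD17 they are 0.378%, 0.462% and 0.524%. Of the G, A and C of the rest 8.03% were listed, against 170 of 171 in the snoRNA. When positions entered by their T reads in another replicate and were measured in a replicate that had not chosen them, the T share was 7.42% ± 0.03 in the rest and 3.30% ± 0.17 in SNORD17 (SD, n = 3), a choice of positions added after the data were seen. Those host positions are still ones that reached 3 T reads, and positions of the rest that reached them in no library were not measured, so the T share of the host as a whole was not determined.

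**Figure D4:**
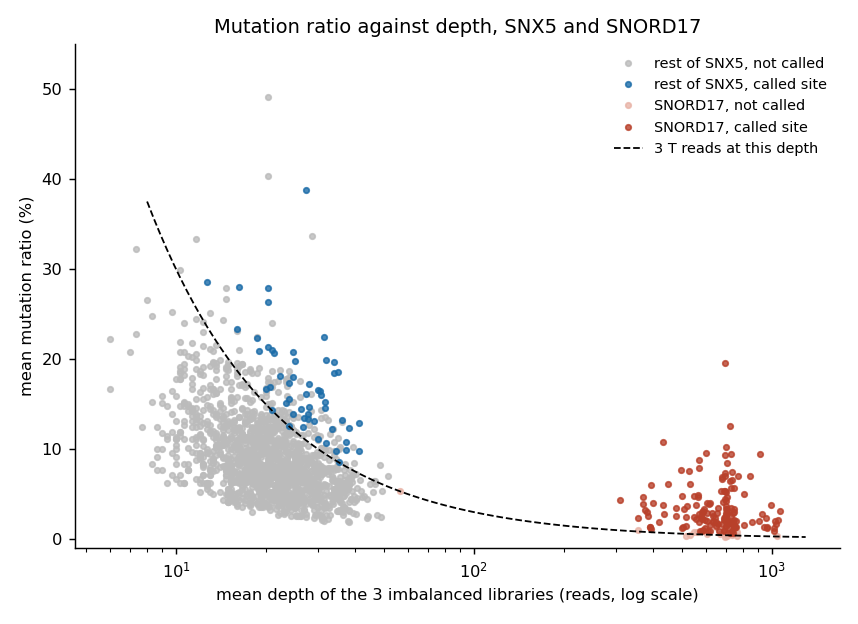
Mean mutation ratio (%) against mean depth (reads, log scale) in the imbalanced libraries for every listed position; the dashed line is the ratio that 3 T reads give at that depth. Called sites of the rest of SNX5 sit near or above the line, and SNORD17 lies far to the right of it, at medians of 573 to 793.5 reads.

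Replicate 3 contributed the most listings of the host: 887 of its positions had at least 3 T reads in replicate 3, 513 in replicate 1 and 413 in replicate 2. The order was the reverse in SNORD17, where 157 positions reached 3 T reads in replicate 3, and 165 and 166 in replicates 1 and 2. The median depth of imbalanced over balanced reads at positions of both tables was 0.432, 0.589 and 0.646 in SNORD17, 0.509, 0.703 and 0.803 in the rest, and 0.500, 0.661 and 0.714 over the series. The snoRNA was below the series and the host above it in all 3 replicates. The host positions were listed for at least 3 T reads in an imbalanced library. How far that choice shifts their depth ratio was not tested.

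**Figure D5:**
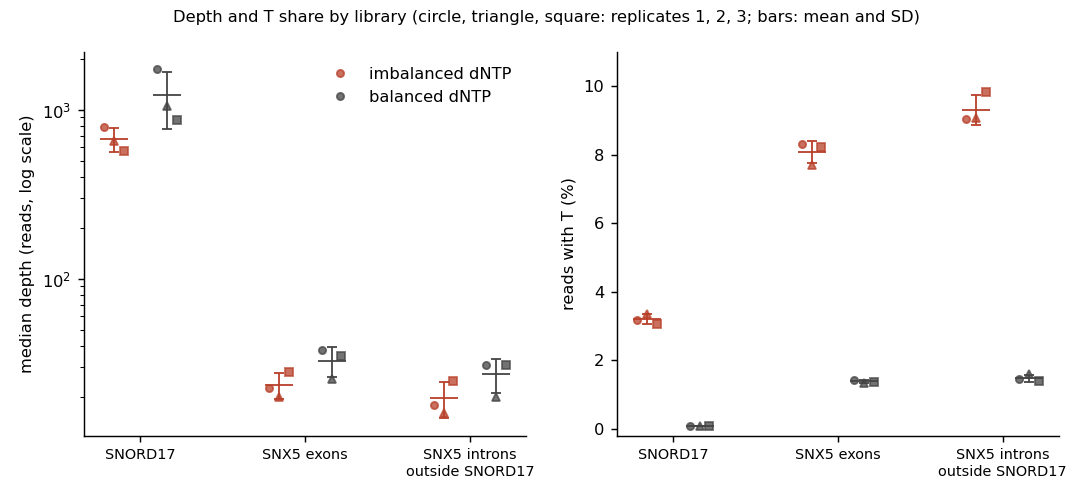
Median depth (reads, log scale) and share of reads with T (%) in SNORD17, SNX5 exons and SNX5 introns outside SNORD17, per library, with mean and SD of 3 replicates. SNORD17 is deeper in every library and its T share over listed positions is lower in both reactions. Host positions were listed for their T reads at low depth, so the direction of the T share is no result in either reaction.

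Genes that work with SNX5 had few listed positions. Of 8 partners, SNX1 (2 positions), which pairs with SNX5, and SNX6 (1 position), a close relative of SNX5, were listed under imbalanced dNTP; SNX2, SNX32 and the retromer subunits VPS26A, VPS26B, VPS29 and VPS35 were not, and 0 positions were called. Of the genes of the box C/D core proteins, FBL and SNU13 had 0 listed positions, and NOP56 and NOP58 had 198 and 169. There, 177 and 155 of the listed positions lay inside annotated snoRNA genes, 89.4% and 91.7%. In SNX5 that share was 170 of 1657, or 10.3%, so most of its listed positions lay outside its snoRNA, unlike in these other hosts. NOP56 holds 5 annotated snoRNA genes in 5801 nt, NOP58 holds 4 in 37926 nt and SNX5 holds 1 in 27384 nt. Further host genes were not compared.

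Other box C/D snoRNAs gave T shares near that of SNORD17. SNORD3A (U3), which acts in pre-rRNA cleavage, had 72 of 106 listed positions called and a T share of 2.74% ± 0.11 under imbalanced but 1.32% ± 0.08 under balanced dNTP (SD, n = 3). SNORD118 (U8), also of rRNA processing, had 88 of 95 called, SNORD13 had 61 of 64 and SNORD22 had 86 of 95. Their imbalanced T shares were 3.22% ± 0.17, 3.56% ± 0.15 and 2.91% ± 0.18 (SD, n = 3), beside 3.20% ± 0.14 for SNORD17. Over the 40 snoRNA genes with at least 50 positions in both tables (overlapping annotations merged from 43 entries), SNORD17 ranked 22nd by imbalanced T share and 21st by depth. The 3 genes nearest to it by the root mean square difference of log2 T share over the 6 libraries were SNORD118 (0.05), the box H/ACA snoRNA SNORA16A (0.08) and SNORD15A (0.09).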

How the data were processed

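Per the labels and the study's methods, caRNA of HepG2 was depleted of rRNA and sequenced as single-end reads of 100 nt in 3 biological replicates. The authors trimmed reads with Cutadapt, removed duplicates by molecular identifier, aligned to hg38 with TopHat2 (3 mismatches and multiple alignments allowed) and counted bases with JACUSA; tool versions are not given in the sources used here. The deposited tables hold counts, whole-number reads with each base per position, not normalized, and a JACUSA score column that was deposited with them but not used. Start positions count from 0 in the files and were raised by 1. The rule for listing is not given in the sources used here; every position listed under imbalanced dNTP in SNX5 had at least 3 T reads in some library. Columns of per-sample values tied to no sample numbered 0.

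Positions were placed by GENCODE release 44. T and other reads of positions listed in both tables and covered by 10 or more reads in each library (32284) were tested with edgeR 4.0.16 (quasi-likelihood, Benjamini-Hochberg over all positions; library effects, and replicate number as a block on the T share), after the fit had been tested on simulated data. The block follows the split of each RNA between both reactions; depth deviations of same-numbered libraries correlated at 0.746, 0.590 and 0.871 over 24432 positions, and replicates 1 and 2 also deviated alike (0.699 and 0.599). Shares and depths were compared by exact paired permutation tests. Intervals are exact (Clopper-Pearson, 95%), and intervals and limits for a count of 0 (3 counts) cover counting error only. Copies were searched with blastn 2.17.0. DESeq2 1.42.0, Fisher's exact test per replicate, other depth filters and call criteria, other summaries and leaving out each replicate were the alternatives.

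Named in the text were the 5 called sites of SNORD17 with the highest ratios at a depth of at least 100, its lowest called site, the 5 deepest positions and 5 highest called sites of the rest, lists of partner genes, core proteins, snoRNAs and markers, and the 3 snoRNAs of nearest T share; box positions and the strongest edgeR call of the rest were added after their values were seen. The members and lists were chosen with earlier results of these data known.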

Additional observations from a re-analysis of the deposited data

How the results depend on the processing

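In SNORD17, positions higher by edgeR numbered 152. Leaving out each replicate gave 136 to 148, and the other alternatives gave 122 to 153. The share higher over the series was 74.3% by edgeR and 54.3% to 56.7% without each replicate. It was 83.5% without the block, 76.1% with DESeq2, 66.4% without the depth filter and 91.5% at a depth of 50. For Fisher's exact test, which gave the 122, no such share was computed. Its called sites, 149, stayed between 131 and 158, except that a minimum ratio of 0.05 left 24 (median 7.65%) and of 0.1 left 2 (median 16.1%). Leaving out each replicate gave medians from 2.54% to 2.76%.

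In the rest of SNX5, the edgeR count of 11 became 48 without the replicate block, 22 with DESeq2, 1 with Fisher's exact test in each replicate, and 0 to 1 without each replicate. The 53 called sites became 31 at a minimum depth of 20, 4 at 5 T reads, 34 at a minimum ratio of 0.1, 5 where the input had to be listed, and 82 to 152 without each replicate. At a depth of 50 no position of the rest remained, so no value was had. The causes of these changes were not tested. The block changed no other call in SNX5 beyond 1.5 times.

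The 29 alternatives for the depths, for SNORD17 against the rest and for SNORD17 between reactions kept their direction, including 2 added after the data were seen; with 3 pairs no p can fall below 0.25. The 5 for the rest between reactions did too, but listing sets that direction. Listing bears in the same way on the T share of SNORD17 against the rest, so its kept direction carries no weight. Depth is a limit: at the depths of the rest of SNX5, a position needs a ratio above 10% at the median to reach 3 T reads in a library.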
